A study of Mus musculus with 23 samples.

Results

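The genes described here encode the proteins with which cells sense, move and interconvert lactate: the lactate receptor Hcar1, the monocarboxylate transporters Slc16a1, Slc16a3 and Slc16a7, their chaperone Bsg, and the lactate dehydrogenase subunits Ldha and Ldhb. They are 7 of the 14651 genes in the deposited expression table, and all 7 of the symbols looked for were found in it. Hcar1 was chosen by its fall at 4°C in these same data, so its cold change is given as a description with no test. The other 6 were named by their role in lactate handling, with earlier results of these data known, and their adjusted p-values come from the fit over all genes.

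RNA was sequenced from brown adipose tissue (BAT) of 23 male mice aged 8 to 12 weeks on a C57BL/6 background. By the paper's methods, the floxed line came from cells of mixed background and was backcrossed to C57BL/6, though not to full homogeneity. Control mice carried the floxed Mcu allele alone (Mcu[fl/fl]), and BAT-Mcu-KO mice carried it together with a Cre recombinase driven by the Ucp1 promoter (Mcu[fl/fl];Ucp1-Cre), which removes exon 2 of Mcu, the pore of the mitochondrial calcium uniporter, in cells that express Ucp1. The floxed allele was thus shared by all mice, and the Cre transgene was present in the BAT-Mcu-KO groups alone. Mice were kept for 6 h at room temperature (RT; 6 control and 6 BAT-Mcu-KO mice) or at 4°C (5 control and 6 BAT-Mcu-KO mice). In the cold they were housed singly without bedding and, by the general protocol, without food, and the sources used here do not say whether the mice at RT had food. Temperature cannot be told apart from the conditions that went with it.

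Lactate crosses membranes together with a proton through the monocarboxylate transporters (MCTs), whose passage to the cell surface needs a chaperone of the immunoglobulin family, most often basigin. Lactate dehydrogenase is a tetramer of A and B subunits and interconverts pyruvate and lactate together with NADH and NAD+. In adipocytes lactate also acts as a signal, since it binds HCAR1 (GPR81), a receptor coupled to Gi that lowers cAMP and so restrains lipolysis.

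Each library held between 7129271 and 21006347 reads on the tested genes, and the smallest was control 4°C replicate 1. Mcu itself, the check on the genotype labels, had normalized counts of 81.4 to 136 in control mice at RT and of 15.2 to 42.4 in BAT-Mcu-KO mice at RT, with no overlap. At 4°C the corresponding ranges were 70.8 to 132 and 24.0 to 39.9. The tissue label held, since the summed count of the 5 brown adipocyte markers (Ucp1, Cidea, Adipoq, Plin1 and Lipe) was at least 125007 in every library. The summed count of 9 skeletal muscle markers, in contrast, ranged from 16.2 to 46219 and exceeded 10000 in 6 libraries, of which 3 were control 4°C and 3 were BAT-Mcu-KO RT libraries.

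The promoters of the receptor, of the transporter that rose with cold, and of the dehydrogenase with the highest level are shown because these genes stood for 3 different responses to cold: a fall, a rise and no called change. The RefSeq table used here has windows for 5 of the 7 genes. Bsg and Slc16a7 had no entry. Printed are the 250 bases before the annotated start, on the coding strand of GRCm38.p6. Capitals mark the full cAMP response element TGACGTCA and its core TGACG, the E-box CACGTG, and the hypoxia response core ACGTG, each searched on both strands. The full element contains the core on both strands, and the E-box contains the hypoxia core on both strands.
Hcar1, chr5:123880004-123880253, minus strand: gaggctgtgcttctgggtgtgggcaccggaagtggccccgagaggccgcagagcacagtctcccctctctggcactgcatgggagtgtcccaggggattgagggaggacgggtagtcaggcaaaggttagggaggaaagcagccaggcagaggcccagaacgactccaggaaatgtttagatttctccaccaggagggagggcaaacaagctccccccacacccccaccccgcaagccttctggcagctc
Slc16a1, chr3:104638414-104638663, plus strand: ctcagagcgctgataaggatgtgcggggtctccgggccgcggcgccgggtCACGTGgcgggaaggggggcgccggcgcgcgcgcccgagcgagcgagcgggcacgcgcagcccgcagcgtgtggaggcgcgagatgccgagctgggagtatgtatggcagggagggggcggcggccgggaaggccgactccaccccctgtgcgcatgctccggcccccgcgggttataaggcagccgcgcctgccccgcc
Ldha, first of 2 annotated starts, chr7:46845554-46845803, plus strand: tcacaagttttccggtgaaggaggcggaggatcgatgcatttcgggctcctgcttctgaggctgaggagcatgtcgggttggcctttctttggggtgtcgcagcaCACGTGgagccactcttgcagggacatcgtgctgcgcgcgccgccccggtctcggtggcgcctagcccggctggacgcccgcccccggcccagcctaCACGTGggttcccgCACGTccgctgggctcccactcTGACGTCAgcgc

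The Hcar1 window held none of the 4 motifs and 6 CG dinucleotides, at a GC content of 62.4%. The Slc16a1 window held 1 E-box, 194 bases before the start, and 37 CG dinucleotides at 76.4% GC. The printed Ldha window held 1 full cAMP response element 4 bases before the start, 2 E-boxes that ended 139 and 42 bases before it, and a further hypoxia core 29 bases before it, with 25 CG dinucleotides at 67.2% GC. The window of the other annotated Ldha start (chr7:46846832-46847081) held 1 TGACG, 138 bases before that start, and none of the other 3 motifs, with 9 CG dinucleotides at 54.4% GC. Among 32851 windows of this length over all genes, TGACGTCA was found in 1.55%, TGACG in 17.8%, CACGTG in 6.02% and ACGTG in 16.6%. The Ldhb window held none of the 4 motifs, and the Slc16a3 window held 1 TGACG and 2 ACGTG, of which 1 pair overlapped. These are matches of letters in a window and were not tested as binding sites.

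Cold and genotype were examined in 1 linear model (limma) on log2(normalized count + 1), and a call required an adjusted p under 0.05 (Benjamini-Hochberg, over all genes). With cold, 22.3% of all genes were called higher and 23.7% lower in control mice, and 21.4% and 21.9% in BAT-Mcu-KO mice. Against this background, and with Hcar1 left out because its cold change chose it, 1 of the other 6 lactate genes was called higher and 1 lower in control mice, and 3 were called higher and 1 lower in BAT-Mcu-KO mice. In control mice the median log2 change of the 6 was 0.19, and in BAT-Mcu-KO mice it was 0.33, against -0.02 for all genes in both. The called genes thus went in both directions.

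**Figure D1:**
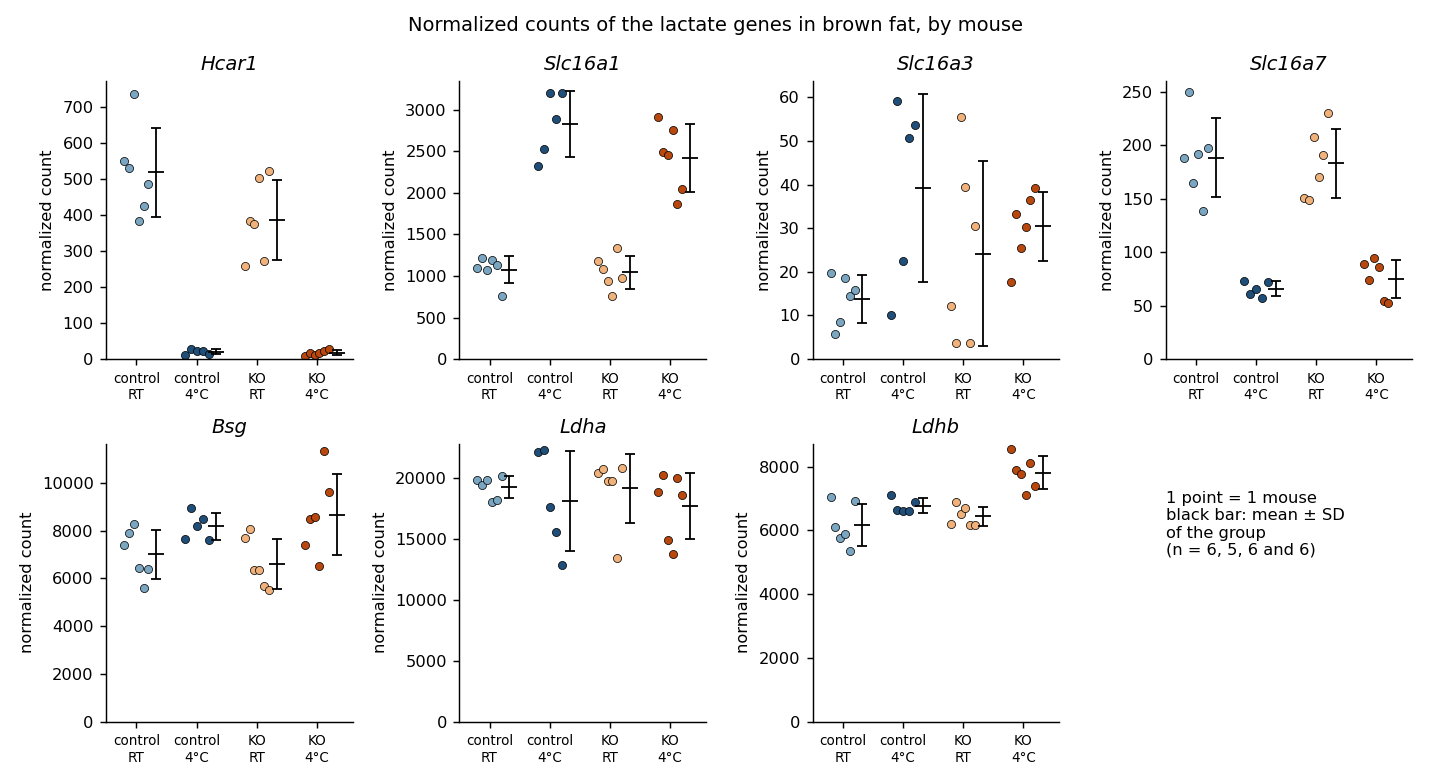
Normalized count (y axis, from 0, a separate scale for each gene) of the 7 lactate genes in each mouse (points), by genotype and temperature, with the mean ± SD of each group in black (n = 6 control RT, 5 control 4°C, 6 KO RT and 6 KO 4°C; KO is BAT-Mcu-KO). Hcar1 and Slc16a7 were lower in every mouse at 4°C than in any mouse at RT of the same genotype, Slc16a1 was higher in every one, and Ldha overlapped in all groups. Of all genes, 12.3% in control and 11.9% in KO mice were lower in this way, and 13.0% and 12.4% higher.

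Hcar1, on chromosome 5 from 123876736 to 123880020 on the minus strand and made of a single exon, had the largest difference of the 7. In control mice at RT its normalized count ranged from 383 to 736 with a median of 509, and at 4°C the 5 mice had 12.1, 28.8, 22.4, 22.0 and 13.6. In BAT-Mcu-KO mice the range was 260 to 521 with a median of 379 at RT, and 9.20 to 29.2 with a median of 16.6 at 4°C. Every mouse at 4°C lay far below every mouse at RT, and no mouse at 4°C exceeded 35 reads on the gene against a minimum of 294 reads at RT. This lack of overlap goes with the choice of the gene. It held in this direction for 12.3% of all genes among control mice and 11.9% among BAT-Mcu-KO mice. The mean was 26.2-fold lower at 4°C in control mice and 21.9-fold lower in BAT-Mcu-KO mice, with log2 differences of -4.68 (SE 0.26) and -4.42 (SE 0.25). In a bulk sample, fewer cells of a type and less RNA per cell cannot be told apart.

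Between genotypes the receptor did not pass the test. At RT its mean was 386 ± 110 (SD, n = 6) in BAT-Mcu-KO and 519 ± 124 (SD, n = 6) in control mice, and 4 of the 6 BAT-Mcu-KO mice lay below every control mouse. The log2 difference was -0.44 (95% interval -0.96 to 0.07, limma adjusted p = 0.951). At 4°C it was -0.19 (-0.73 to 0.35, adjusted p = 0.914), at 6 to 35 reads per library. The difference between the cold changes of the genotypes was 0.26 (-0.49 to 1.00, adjusted p = 0.938).

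Over all 23 mice the levels most correlated with Hcar1, on the log2 scale and among 14651 genes, were those of Mum1 (Pearson r = 0.980), P2rx5 (0.980), Per3 (0.979), Tcta (0.978) and Cdk6 (0.978). All 5 were lower at 4°C, for example P2rx5 with means of 755 at RT and 138 at 4°C in control mice, so the likeness mostly restates a shared fall with cold. Once each group's mean was subtracted, the closest of 9531 genes with a mean normalized count of at least 50 were Trit1 (r = 0.774), Vldlr (0.766), Tcta (0.762), Dnajc28 (0.741) and St6galnac6 (0.720). Tcta was the gene present in both sets. These values describe 23 libraries that also share preparation and depth, and no test was made on them.

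Hcar1 is 1 of several receptors in adipocytes that couple to Gi and restrain lipolysis. Of 7 others listed, 6 were in the table, and 5 were called lower at 4°C in both genotypes while none was called higher. The share of all genes called lower was 23.7% in control mice and 21.9% in BAT-Mcu-KO mice. The 6 receptors had a median log2 change of -2.36 in control mice and of -2.23 in BAT-Mcu-KO mice, against -0.02 for all genes. The list was drawn up with the fall of Hcar1 known.

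Hcar2, the receptor for niacin and beta-hydroxybutyrate, lies 11236 bases from Hcar1 on the same strand with no annotated gene between them. Its normalized count was 68.5 to 150 in control mice at RT and 4.41 to 8.71 at 4°C, and 82.7 to 150 and 4.57 to 14.4 in BAT-Mcu-KO mice, again without overlap. At 4°C it had 3 to 10 reads per library in control mice and 5 to 18 in BAT-Mcu-KO mice. The log2 changes were -3.57 (SE 0.25, limma adjusted p = 2.44e-11) and -3.30 (SE 0.24, adjusted p = 4.1e-11). Adora1, the adenosine A1 receptor, had means of 1620 ± 198 at RT (SD, n = 6) and 305 ± 47.3 in the cold (SD, n = 5) among control mice, and of 1818 ± 195 and 299.6 ± 96.7 (SD, n = 6 each) among BAT-Mcu-KO mice, log2 changes of -2.41 and -2.66 (adjusted p = 1.59e-11 and 1.53e-12).

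Ffar2, a receptor for short-chain fatty acids, fell by 2.90 and 2.59 on the log2 scale (adjusted p = 2.68e-05 and 6.68e-05), with at most 10 reads in any library at 4°C. Sucnr1, the succinate receptor, fell by 2.31 and 1.87 (adjusted p = 0.00111 and 0.00497), and its groups overlapped in both genotypes. At 4°C it had 4 to 13 reads per library in control mice and 1 to 30 in BAT-Mcu-KO mice. Ptger3, the EP3 receptor for prostaglandin E2, fell by 1.68 and 1.60 (adjusted p = 1.69e-05 and 1.85e-05). Npy1r, a neuropeptide Y receptor, had means among control mice of 37.8 ± 11.1 at RT (SD, n = 6) and 39.1 ± 16.1 in the cold (SD, n = 5) and did not pass the test in either genotype. None of the 6 was called between genotypes at either temperature.

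**Figure D2:**
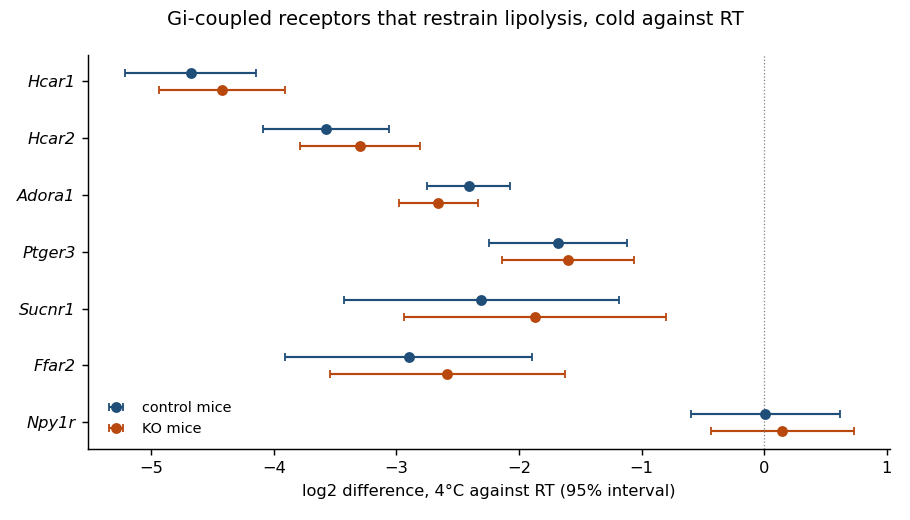
Fitted log2 difference at 4°C against RT (x axis) for Hcar1 and the 6 other measured Gi-coupled receptors that restrain lipolysis, in control mice (blue) and BAT-Mcu-KO mice (orange), with 95% intervals from limma. Hcar1 lies at -4.68 and -4.42 and Npy1r at 0.01 and 0.15, with the other 5 receptors between them. Hcar1 was chosen by this change, so its intervals are a description and no test.

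Of the 6 listed genes of Gi and cAMP signalling, 3 were called higher with cold in each genotype. In BAT-Mcu-KO mice alone, 2 were called lower. The shares of all genes were 22.3% higher and 23.7% lower in control mice, and 21.4% and 21.9% in BAT-Mcu-KO mice. Adcy3, an adenylate cyclase, rose most, with log2 changes of 2.54 for control mice and 2.48 for BAT-Mcu-KO mice (adjusted p = 9.01e-10 and 6.39e-10). Pde3b, the phosphodiesterase through which insulin lowers cAMP in fat, rose by 0.55 and 0.71 (adjusted p = 0.000313 and 8.6e-06). Gnai3, a Gi alpha subunit, rose by 0.46 and 0.61 (adjusted p = 0.000185 and 2.92e-06), whereas Gnai1 and Gnai2 fell by 0.63 and 0.39 in BAT-Mcu-KO mice (adjusted p = 0.00913 and 0.0301). In control mice Gnai2 stood at -0.37 (adjusted p = 0.0508), and no gene of the list passed the test of a difference between the cold changes.

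Among the transporters, Slc16a1 rose and Slc16a7 fell. Slc16a1, which encodes MCT1 (chromosome 3, 104638668 to 104658462, plus strand), had normalized counts of 762 to 1212 with a median of 1116 in control mice at RT. At 4°C the 5 control mice had 2330, 2527, 3200, 2894 and 3203. In BAT-Mcu-KO mice the counts were 758 to 1335 with a median of 1029 at RT and 1864 to 2916 with a median of 2474 at 4°C. Every mouse at 4°C lay above every mouse at RT, as 13.0% of all genes did among control mice and 12.4% among BAT-Mcu-KO mice.

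The mean of Slc16a1 was 2.62-fold higher at 4°C in control mice and 2.32-fold higher in BAT-Mcu-KO mice. On the log2 scale the rise was 1.40 (SE 0.14, limma adjusted p = 1.18e-08) and 1.22 (SE 0.13, adjusted p = 5.71e-08). The genotypes did not differ by the test, at -0.05 (95% interval -0.33 to 0.22) at RT and -0.23 (-0.52 to 0.06) at 4°C. The difference of the cold changes was -0.18 (-0.58 to 0.22, adjusted p = 0.918).

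MCT1 is also found in endothelial cells, and their markers moved with cold. The summed normalized count of Pecam1, Cdh5, Tek, Cldn5 and Emcn was 2603 to 3559 in control mice at RT and 4081 to 7201 at 4°C, and 2668 to 3543 and 3842 to 6930 in BAT-Mcu-KO mice, with none of the 5 at 0 throughout a group. Of the 5, 2 were called higher (Pecam1 and Cldn5) and 1 lower (Emcn) in control mice, and the same 2 were higher in BAT-Mcu-KO mice. For all genes the shares were 22.3% higher and 23.7% lower in control mice, and 21.4% and 21.9% in BAT-Mcu-KO mice. The part of endothelial cells in the rise of Slc16a1 was not tested. After subtraction of group means, the genes whose deviations were most like those of Slc16a1 were Desi1 (r = 0.844), Hccs (0.823), Med23 (0.789), Asap1 (0.789) and Usp19 (0.782), over 23 mice.

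Slc16a7, which encodes MCT2, a transporter of high affinity, lies on chromosome 10 from 125219270 to 125389465 on the minus strand. Its normalized count was 139 to 250 with a median of 190 in control mice at RT, and at 4°C the 5 animals of this genotype had 72.8, 60.7, 66.0, 57.3 and 72.2. The BAT-Mcu-KO mice had 148 to 230 with a median of 180 at RT and 52.6 to 94.3 with a median of 79.8 at 4°C. The groups at 4°C and at RT did not overlap, as was so in this direction for 12.3% of all genes among control mice and 11.9% among BAT-Mcu-KO mice. The mean fell 2.86-fold and 2.44-fold, log2 changes of -1.49 (SE 0.17, adjusted p = 8.51e-08) and -1.30 (SE 0.16, adjusted p = 3.72e-07). Of its exon bases, 179 (1.51%) lie within Gm47862 on the other strand, whose reads could not be told apart because counting did not use strand.

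Slc16a3 encodes MCT4, the lactate exporter of glycolytic muscle fibres, on chromosome 11 from 120948480 to 120960868. It was close to the limit of detection, with 3 to 69 reads per library. Control mice had normalized counts of 5.82 to 19.8 with a median of 15.2 at RT and of 10.1, 59.2, 22.4, 50.7 and 53.7 at 4°C. BAT-Mcu-KO mice had 3.62 to 55.4 with a median of 21.3 at RT and 17.7 to 39.2 with a median of 31.8 at 4°C. The log2 change with cold was 1.30 (95% interval 0.15 to 2.44, adjusted p = 0.0593) in control and 0.88 (-0.21 to 1.97, adjusted p = 0.190) in BAT-Mcu-KO mice, and neither passed the threshold.

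The highest Slc16a3 counts came from the libraries rich in skeletal muscle transcripts. In control mice at 4°C the 3 such libraries had 59.2, 50.7 and 53.7, and the other 2 had 10.1 and 22.4. Among BAT-Mcu-KO mice kept at RT, the 3 such libraries had 55.4, 39.4 and 30.6, and the others 12.1, 3.62 and 3.72. In BAT-Mcu-KO mice at 4°C, which had no such library, the ends of the range ran the other way. There replicate 1, with the largest marker sum (8265), had the lowest Slc16a3 count (17.7). Replicate 6, with the smallest sum (66.7), had the highest (39.2). None of the 9 muscle markers was called between groups in any comparison. As deviations from group means over 23 mice, the correlation of Slc16a3 with the summed markers was r = 0.622 (Spearman's rho 0.718, and r = 0.531 without the 2 mice farthest out), against r between -0.03 and 0.18 for the other 6 genes.

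Without the 6 libraries, an alternative added after these values were seen, the cold change of Slc16a3 was 0.23 (adjusted p = 0.760) in control mice, with 2 mice left at 4°C, and 2.21 (adjusted p = 0.000406) in BAT-Mcu-KO mice, with 3 left at RT. With the marker level as a covariate the changes were 1.27 (adjusted p = 0.0219) and 1.07 (adjusted p = 0.0456). In control mice the change was also called by DESeq2 (1.52, adjusted p = 0.00671) and edgeR (1.53, adjusted p = 0.0166), and without control 4°C replicate 1, the smallest library, it was 1.70 (adjusted p = 0.0148). It was called as well without BAT-Mcu-KO RT replicate 2, 3 or 5, libraries outside the contrast that share its estimate of spread (adjusted p = 0.0406, 0.0430 and 0.0409). The value of Slc16a3 in these data therefore depended on which libraries were kept.

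**Figure D3:**
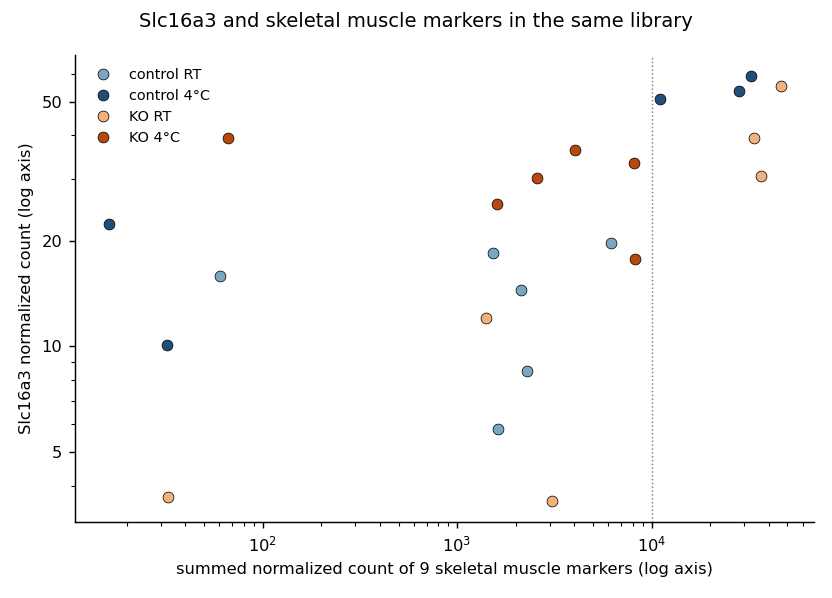
Normalized count of Slc16a3 (y axis, log scale) against the summed normalized count of 9 skeletal muscle markers (x axis, log scale) in each of the 23 libraries, coloured by group, with a dotted line at a sum of 10000. The 6 libraries to the right of the line, 3 control 4°C and 3 KO RT, had Slc16a3 counts of 30.6 to 59.2, and the 17 to the left had 3.62 to 39.2.

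Bsg, which encodes basigin (CD147), the chaperone of MCT1 and MCT4, lies on chromosome 10 from 79704491 to 79711969. Control mice had normalized counts of 5597 to 8282 with a median of 6916 at RT, and of 7666, 8964, 8200, 8496 and 7616 at 4°C. BAT-Mcu-KO mice had 5531 to 8065 with a median of 6335 at RT and 6514 to 11347 with a median of 8529 at 4°C. The groups overlapped in both genotypes. The log2 change was 0.24 (95% interval -0.02 to 0.49, adjusted p = 0.129) in control and 0.38 (0.14 to 0.63, adjusted p = 0.0116) in BAT-Mcu-KO mice, and the difference of 0.15 between them did not pass the test (-0.21 to 0.50, adjusted p = 0.928). The rise in BAT-Mcu-KO mice was not called after quantile normalization (0.28, adjusted p = 0.0629) or without the libraries rich in muscle transcripts (0.27, adjusted p = 0.198).

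Of 15 other monocarboxylate carriers and chaperones listed, 10 were in the table. With cold, 1 was called higher and 1 lower in control mice, and BAT-Mcu-KO mice had 1 called higher and 2 lower. Among all genes, 22.3% were called higher and 23.7% lower in control mice, and 21.4% and 21.9% in BAT-Mcu-KO mice. Slc16a4 fell by 1.07 on the log2 scale in BAT-Mcu-KO mice (adjusted p = 0.000241) and stood at -0.51 in control mice (adjusted p = 0.0653). Slc16a6 was higher by 0.83 in control mice (adjusted p = 0.0165), at 9 to 38 reads per library there.

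Emb encodes embigin, the other chaperone of these transporters and the usual partner of MCT2. BAT-Mcu-KO mice had counts of 5.64 to 24.2 at RT and 14.03 to 54.3 at 4°C, a rise of 1.42 (SE 0.33, adjusted p = 0.00114), and in control mice the change was 0.67 (adjusted p = 0.121). In the same comparison in BAT-Mcu-KO mice, 3 of 5 macrophage markers were called higher, as were 21.4% of all genes. With cold in control mice 0 of the 5 were called. Their sum was 404 to 730 at RT and 718 to 1072 at 4°C in BAT-Mcu-KO mice, against 501 to 829.1 and 538 to 834 in control mice. None of the 5 was at 0 throughout a group, and their part in the value of Emb was not tested.

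The dehydrogenase subunits changed little with cold. Ldha, on chromosome 7 from 46841475 to 46855627, had normalized counts of 18083 to 20194 with a median of 19616 in control mice at RT, and at 4°C the 5 mice had 22173, 22354, 17644, 15579 and 12876. BAT-Mcu-KO mice had 13405 to 20872 with a median of 20089 at RT and 13797 to 20248 with a median of 18746 at 4°C. The groups overlapped, and the control mice at 4°C lay on both sides of those at RT. Its SD was 911 at RT and 4139 at 4°C in control mice, and 2857 and 2722 in BAT-Mcu-KO mice. The log2 change in control mice was -0.12 (95% interval -0.40 to 0.16, adjusted p = 0.503). In BAT-Mcu-KO mice the change was -0.11 (-0.38 to 0.16, adjusted p = 0.525). The annotation holds 2 pseudogenes named after this gene, Ldha-ps and Ldha-ps2, and only uniquely mapped reads were counted, so its level is uncertain to that extent. Pseudogenes under other names were not searched for, for this or the other genes.

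Ldhb, on chromosome 6 from 142490249 to 142507957, encodes the subunit that favours the conversion of lactate to pyruvate. Control mice had normalized counts of 5341 to 7034 with a median of 5996 at RT and of 7122, 6655, 6616, 6614 and 6898 at 4°C. BAT-Mcu-KO mice had 6176 to 6896 with a median of 6363 at RT and 7121 to 8558 with a median of 7833 at 4°C. In BAT-Mcu-KO mice the groups did not overlap, whereas in control mice 1 of 5 at 4°C lay above all at RT. Among BAT-Mcu-KO mice, 12.4% of all genes were higher at 4°C without overlap. In BAT-Mcu-KO mice the log2 change was 0.28 (SE 0.07, adjusted p = 0.00233), a 1.21-fold higher mean, and it was 0.14 (SE 0.07, adjusted p = 0.118) in control mice.

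This difference between the genotypes did not itself pass the test (0.13, 95% interval -0.07 to 0.34, adjusted p = 0.873). At 4°C, Ldhb was 0.20 higher in BAT-Mcu-KO than in control mice (0.05 to 0.35), and 5 of 6 BAT-Mcu-KO mice lay above every control mouse. Its unadjusted p of 0.0108 was the smallest of the 7 genes in a comparison of genotypes, and the adjusted p was 0.570. In control mice the cold change of Ldhb was called without control RT replicate 1 (0.18, adjusted p = 0.0467). The deviations of Ldhb from its group means were most like those of Ndufa9 (r = 0.875), Atp5b (0.856), Ndufb8 (0.853), Ndufb6 (0.844) and Dnajc15 (0.841) over 23 mice, of which Ndufa9, Ndufb8 and Ndufb6 encode subunits of respiratory complex I and Atp5b a subunit of ATP synthase.

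Per length of exon the enzymes and the chaperone stood far above the transporters and the receptor. In control mice at RT the normalized count per kb was 5819 ± 275 for Ldha, 3932 ± 427 for Ldhb, 3861 ± 563 for Bsg, 244 ± 37.2 for Slc16a1, 158 ± 37.7 for Hcar1, 15.9 ± 3.15 for Slc16a7 and 2.600 ± 1.04 for Slc16a3 (SD, n = 6). In this order Ldhb and Bsg overlapped, as did Slc16a1 and Hcar1. At 4°C in control mice the receptor had 6.03 ± 2.10 per kb, within the ranges of Slc16a3 (7.37 ± 4.07) and overlapping Slc16a7 (5.56 ± 0.58; SD, n = 5). If the longest transcript replaced the union of exons, Ldha stood at 10612 per kb in control mice at RT, and its place in the order was the same.

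Among the transporters, Slc16a1 made up 92.8% ± 1.71 of the summed level per kb in control mice at RT (SD, n = 6) and 98.0% ± 0.58 at 4°C (SD, n = 5). In BAT-Mcu-KO mice it made up 91.8% ± 3.23 and 97.8% ± 0.36 (SD, n = 6). The share of Slc16a7 went from 6.18% to 0.87% and from 6.19% to 1.12%. Of Ldha and Ldhb together, Ldhb made up 37.9% to 42.8% per kb in control mice at RT and 38.6% to 53.0% at 4°C, and 38.4% to 49.3% and 45.1% to 52.3% in BAT-Mcu-KO mice. The mean shares were 40.2%, 44.7%, 41.8% and 48.4%, and with the longest transcripts as lengths they were 30.8%, 34.9%, 32.2% and 38.2%. The highest share at RT in BAT-Mcu-KO mice belonged to the mouse with the low Ldha.

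**Figure D4:**
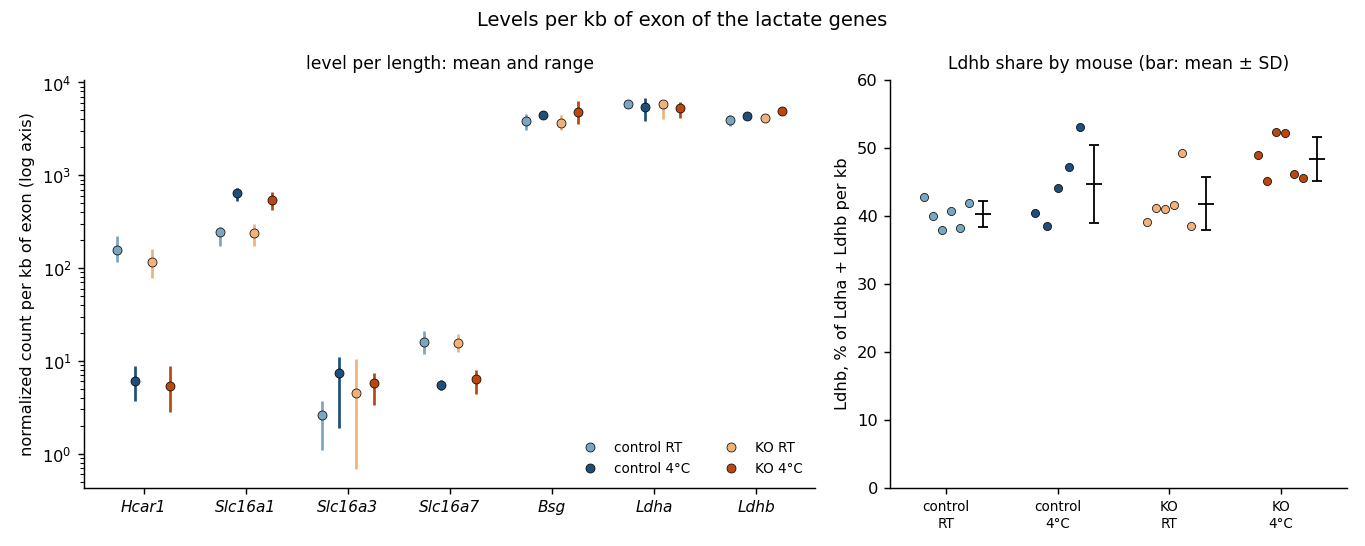
Left, normalized count per kb of exon (y axis, log scale) of the 7 genes in the 4 groups, as the mean (point) and the range over mice (line). Right, Ldhb as a percentage of Ldha plus Ldhb per kb in each mouse (points), with mean ± SD. Hcar1 falls from 158 to 6.03 per kb in control mice, and the Ldhb share runs from 37.9% to 53.0% over all mice.

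The other listed lactate dehydrogenase gene in the table, Ldhd, which encodes the mitochondrial D-lactate dehydrogenase, was lower at 4°C in BAT-Mcu-KO mice (-0.25, adjusted p = 0.0330) and stood at -0.20 in control mice (adjusted p = 0.102). Of the 18 genes of pyruvate supply and fate, all in the table, 3 were called higher and 5 lower with cold in control mice, and 3 higher and 4 lower in BAT-Mcu-KO mice. For all genes the shares were 22.3% higher and 23.7% lower in control mice, and 21.4% and 21.9% in BAT-Mcu-KO mice. Pdk4, a kinase that switches off pyruvate dehydrogenase, rose by 1.32 and 1.03 on the log2 scale (adjusted p = 1.63e-08 and 4.21e-07). Pdp2, a phosphatase that switches it on, rose by 0.90 and 1.10 (adjusted p = 2.35e-06 and 6.22e-08). Opposing enzymes of this step thus rose together.

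Gpt, an alanine aminotransferase that uses pyruvate, fell by 0.82 and 0.68 (adjusted p = 7.57e-06 and 4.77e-05), and the kinase gene Pdk2 fell by 0.67 in each genotype (adjusted p = 1.79e-06 and 8.14e-07). Pdk1, another kinase of the family, fell by 0.54 and 0.68 (adjusted p = 0.0262 and 0.00429). Gpt2 rose by 0.83 in control mice (adjusted p = 0.00203) and stood at 0.12 in BAT-Mcu-KO mice (adjusted p = 0.673), and the difference of the cold changes did not pass the test (-0.71, adjusted p = 0.793). Pdhx rose by 0.28 in BAT-Mcu-KO mice (adjusted p = 0.0088) and stood at 0.21 in control mice (adjusted p = 0.0549). The mitochondrial pyruvate carrier genes did not pass the test: Mpc1 stood at -0.27 (adjusted p = 0.0643) and -0.18 (adjusted p = 0.213), and Mpc2 at -0.07 (adjusted p = 0.547) and 0.14 (adjusted p = 0.225).

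Shuttles that carry the electrons of cytosolic NADH into mitochondria share the NAD+ pool with lactate dehydrogenase. Of their 10 listed genes 9 were in the table, and 1 was called higher and 2 lower in each genotype. The corresponding shares of all genes were 22.3% and 23.7% in control mice, and 21.4% and 21.9% in BAT-Mcu-KO mice. Got1, the cytosolic aspartate aminotransferase, rose in control mice from 242 ± 49.7 at RT (SD, n = 6) to 1931 ± 236 (SD, n = 5), and in BAT-Mcu-KO mice from 288 ± 112 to 1774 ± 274 (SD, n = 6 each), log2 changes of 3.01 and 2.70 (adjusted p = 1.07e-11 and 2.79e-11). Gpd1l fell by 1.30 and 1.41 (adjusted p = 1.64e-06 and 2.59e-07), and Slc25a11, the malate and oxoglutarate carrier, by 0.33 and 0.26 (adjusted p = 0.0122 and 0.0367).

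Of 6 transcriptional regulators known to act on genes of this set, 3 were called higher with cold in each genotype. In BAT-Mcu-KO mice 2 were called lower. Among all genes the shares were 22.3% higher and 23.7% lower in control mice, and 21.4% and 21.9% in BAT-Mcu-KO mice. The coactivator Ppargc1a rose by 5.10 and 4.33 (adjusted p = 1.95e-14 and 1.08e-13), Hif1a, the hypoxia-inducible factor, by 0.78 and 0.52 (adjusted p = 5.82e-05 and 0.00274), and Pparg by 0.51 and 0.44 (adjusted p = 0.000643 and 0.00196). Epas1 and Myc fell by 0.39 and 1.34 in BAT-Mcu-KO mice (adjusted p = 0.00634 and 0.0366), and in control mice they stood at -0.23 (adjusted p = 0.113) and -1.26 (adjusted p = 0.0572).

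**Figure D5:**
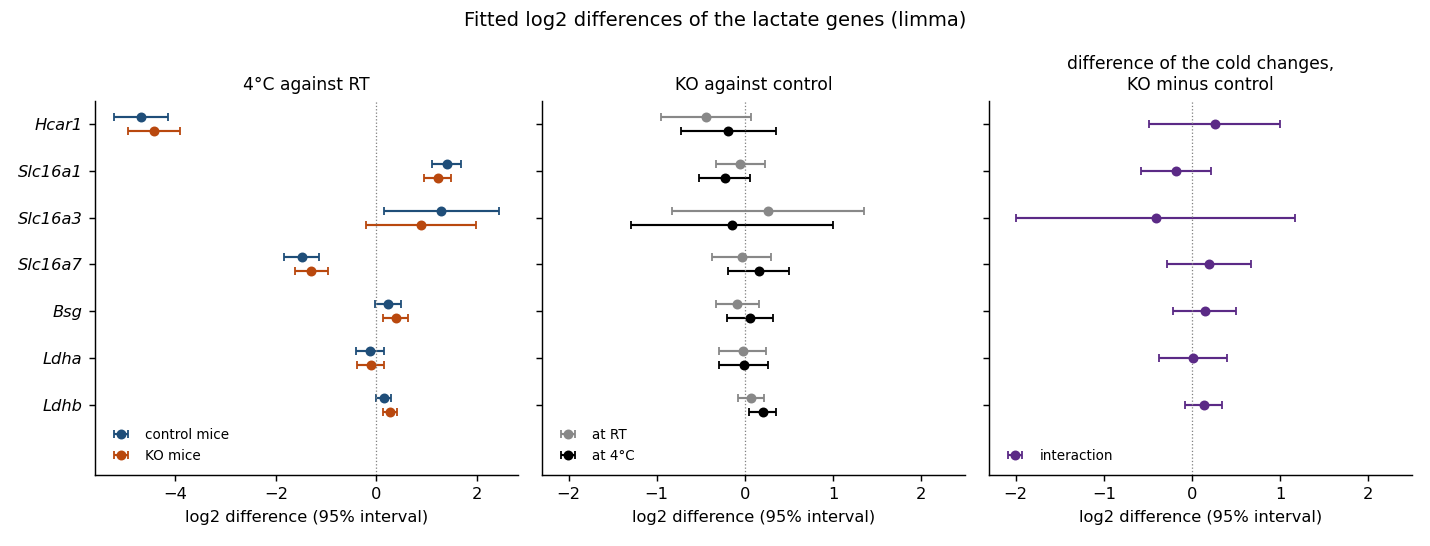
Fitted log2 difference (x axis) with its 95% interval from limma for the 7 lactate genes: left, 4°C against RT in each genotype; middle, BAT-Mcu-KO (KO) against control at each temperature; right, the difference of the cold changes. In the middle panel all intervals but that of Ldhb at 4°C (0.05 to 0.35) include 0, and in the right panel all 7 do. Hcar1 was chosen by its cold change, so its intervals in the left panel are a description and no test.

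By genotype, none of the 7 lactate genes was called by limma at RT, where 0.0478% of all genes were, or at 4°C, where 0.0751% were. At an unadjusted p under 0.05, 0 of the 7 passed at RT and 1 of the 7, Ldhb, at 4°C. DESeq2 and edgeR also called 0 of the 7 in both comparisons. The log2 differences by genotype lay between -0.44 (Hcar1) and 0.26 (Slc16a3) at RT and between -0.23 (Slc16a1) and 0.20 (Ldhb) at 4°C. The intervals were narrowest for Ldhb, at -0.08 to 0.21 at RT, and widest for Slc16a3, at -0.83 to 1.36 at RT and -1.30 to 0.99 at 4°C, so that differences within these bounds could not be told apart from 0 for Slc16a3.

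For the difference of the cold changes, limma called 0% of all genes, with 878 at an unadjusted p under 0.05, while DESeq2 called 28 and edgeR 0. None of the 7 was called by any of the 3 tools, and none had an unadjusted p under 0.05 in limma. The fitted differences ran from -0.41 for Slc16a3 (95% interval -1.996 to 1.17) to 0.26 for Hcar1. Of the 56 genes measured over the 7 related lists, 0 were called by limma between genotypes or for this difference. Of those 168 tests, 7 had an unadjusted p under 0.05, and the smallest adjusted p was 0.284, for Ppargc1a by genotype at 4°C. Its normalized count there was 7278 to 13022 in BAT-Mcu-KO mice and 14141 to 25446 in control mice. The log2 difference was -0.85 (95% interval -1.32 to -0.39), and that of its cold changes was -0.77 (-1.42 to -0.13, adjusted p = 0.793).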

How the data were processed

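Libraries were made from brown adipose tissue of 23 mice by a Smart-seq2 protocol and sequenced as paired reads of 25 bp. Per the study's methods and the submitters' processing notes, reads were aligned to mm10 with STAR 2.4.0j and gencode annotation, uniquely mapped reads within exons were counted with HTSeq irrespective of strand, and a gene was kept if 6 or more samples had 8 or more reads on it. The deposited values are a signal: read counts divided by DESeq2 size factors, one normalized count per gene and mouse. Dividing each column by its smallest step gave whole reads for 100% of values (tolerance 0.05 reads), and these recovered reads gave the depths and the count tests used as alternatives. A second deposited table holds the authors' own comparisons and was not used.

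The 7 lactate genes, the related lists and the markers were chosen with earlier results of these data known. Groups came from the sample titles. log2(normalized count + 1) was fitted with limma 3.58.1 (R 4.3.3; a mean for each of the 4 groups, empirical Bayes with a trend), and p-values were adjusted over 14651 genes by the Benjamini-Hochberg method. Fold changes on this scale understate those of low genes. Replicates are different mice. Other settings tried were pseudocounts of 0.5 and 10, a minimum mean of 50, rescaling to the 75th percentile, quantile normalization, no trend in limma, a fit of the compared groups alone, the replicate number as a block, DESeq2 1.42.0 and edgeR 4.0.16 on recovered reads, and each library left out. A muscle marker covariate and the removal of 6 libraries rich in muscle transcripts were added after the data were seen. The scripts were tested on simulated counts. Of the named genes, all 7 are given in each comparison, and up to 3 called genes per direction are given of each list. Carriers of lactate, pyruvate or protons could be given whatever their call, as Mpc1 and Mpc2 were, and not all of them are. The values of 1 listed gene are not reported here. Gene positions and exon lengths are from GENCODE M21 on GRCm38, and promoters from RefSeq on GRCm38.p6. No molecular identifiers are stated for the libraries, so reads are not independent molecules.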

Additional observations from a re-analysis of the deposited data

Results flagged for a closer look

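In 28 sets of values (7 genes in 4 groups), 2 had a mouse far from the others of its group by Dixon's test at the 95% level, where chance gives about 1 in 20. Ldha was 13405 in BAT-Mcu-KO RT replicate 5, against 19739 to 20872 in the other 5 mice of the group, and the gap made up 0.848 of the range (critical value 0.625). Without this mouse the log2 difference of Ldha by genotype at RT was 0.08 in place of -0.02, and neither value passed the test. Slc16a1 was 762 in control RT replicate 6, against 1069 to 1212 in the other 5 mice, with a gap of 0.683 of the range. Both mice lay below their groups.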

How the results depend on the processing

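Of 408 refits of a lactate gene in a comparison under another setting, 383 kept the direction and the side of the threshold, as did 776 of 805 refits with 1 library left out. Both counts include the cold refits of Hcar1, whose cold change chose it, so those refits are no test. The exceptions of called genes or of genes near the threshold stand beside Slc16a3, Bsg and Ldhb in the report. Slc16a3 with cold in control mice was called under 7 of 11 settings (adjusted p from 0.00671 to 0.760), and it had no value with a minimum mean of 50. The added settings gave the other sign for Slc16a3 by genotype at RT (-0.0447 with the muscle covariate, -1.07 without the 6 libraries), and without the 6 libraries for Slc16a3 by genotype at 4°C (0.92) and for the difference of cold changes (1.98), Slc16a1 (0.17) and Bsg (0.0250) by genotype at RT, and Ldha with cold in control mice (0.0397) and for the difference of cold changes (-0.0623). Other sign changes were of values near 0: Bsg by genotype at 4°C under quantile normalization (-0.00026), Ldha by genotype at 4°C after rescaling to the 75th percentile (0.0142), and Ldha for the difference of cold changes under quantile normalization (-0.0475), DESeq2 (-0.0227) and edgeR (-0.0212). With 1 library left out, the ranges that crossed 0 were, by genotype at RT, -0.149 to 0.0359 for Slc16a1, -0.0900 to 0.632 for Slc16a3, -0.121 to 0.0482 for Slc16a7 and -0.0505 to 0.0773 for Ldha, by genotype at 4°C, -0.552 to 0.0576 for Slc16a3, -0.0226 to 0.137 for Bsg and -0.130 to 0.0688 for Ldha, and for the difference of cold changes, -0.108 to 0.0914 for Ldha. None of these passed the test, and the cause was not tested.

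The count of all genes called by genotype at RT was 7, 20 by DESeq2, 3 with only the compared groups and 4 without the 6 libraries. At 4°C it was 11, and 27 by DESeq2, 6 by edgeR, 7 without the trend, 2 with only the compared groups and 1 without the 6 libraries. With 1 library left out it ranged from 3 (without control 4°C replicate 2) to 16, and it was 7 without control 4°C replicate 5 and 6 without BAT-Mcu-KO 4°C replicate 4. Rescaling to the 75th percentile moved the median of all genes with cold in control mice from -0.02 to -0.13, and 38.2% rather than 48.5% of called genes were then higher. No call on the 7 genes changed under that scaling.

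Mice of the same replicate number were compared for likeness, which cannot exclude that they were paired. The mean correlation of their deviations was -0.03 and -0.10 for the cold comparisons of control and BAT-Mcu-KO mice. It was -0.04 for genotype at RT and 0.12 for genotype at 4°C, where the 5 pairs ran from 0.04 to 0.22. In the same order, 0 of 5, 0 of 6, 1 of 6 and 2 of 5 mice were most like their own number. With the replicate block, 6610 and 6376 genes were called with cold against 6735 and 6349, 7 by genotype at RT, 7 against 11 by genotype at 4°C, and 0 for the difference of cold changes. Of the 7 genes, 4 were then called with cold in control mice, counting Hcar1, and Slc16a3 stood at 1.40 there (adjusted p = 0.0478). In BAT-Mcu-KO mice 5 were called with cold, again counting Hcar1, whose cold change chose it. The other 3 comparisons had 0 each, and Ldha stood at -0.0117 for the difference of cold changes. Among the 7 genes, depth limits Slc16a3, with as few as 3 reads, and Hcar1 at 4°C, with as few as 6.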
